A study of Gallus gallus with 5 samples.

Results

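The SIX-family and EYA loci are those whose gene symbol in the deposited tables consists of the family name and a number alone (SIX2, EYA1 and so on). Of the 18365 loci with counts, 7 such members are described: SIX2 (XLOC_010702), SIX4 (XLOC_012843), SIX6 (XLOC_013344), EYA1 (XLOC_007343), EYA2 (XLOC_007582), EYA3 (XLOC_008462) and EYA4 (XLOC_010876). The rule used names and no measured value. RNA was sequenced from chick embryos of the Bovans Brown breed, with 1 library for each of 5 conditions. These were the posterior pre-placodal region (PPR, stage HH6, called 0ss here for 0 somites), otic-epibranchial progenitors (OEPs) at 5-6ss (somite stage), the thickened otic placode at 8-9ss, the invaginating otic placode at 11-12ss and, as reference, whole embryos at 3ss. The labels name no treatment and no genotype. The study pooled placodes from many embryos for a stage and removed endoderm and mesoderm before the ectoderm was cut out, and the whole embryo holds these tissues along with the otic region.

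SIX-family proteins are homeodomain transcription factors that bind DNA through their SIX-type domain and homeodomain. EYA proteins do not bind DNA by themselves. They are brought to target genes by SIX-family partners, act there as co-activators and also carry a phosphatase domain. Expression of SIX4 and EYA2 is a classical mark of the pre-placodal region, the strip of ectoderm around the anterior neural plate from which all cranial sense organ placodes arise. In mammals loss of EYA1 disrupts inner ear development, and in humans mutations of EYA1 cause branchio-oto-renal syndrome and mutations of EYA4 cause a late-onset hearing loss. SIX2 is best known from nephron progenitors of the kidney, and SIX6 from the eye and pituitary.

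The libraries held between 26858887 counts at 5-6ss and 136916870 at 0ss, so that low values are known best at 0ss. Since each condition has 1 library, no p-value was computed. Each fold change carries the exact (Clopper-Pearson) binomial 95% interval of its 2 counts, which covers counting error only, and PCR copies were not told apart. A locus was called higher or lower where normalized counts (counts divided by median-of-ratios size factors) differed more than 1.5-fold and, in the larger of both values, RPKM (reads scaled by transcript length and by library depth) was over 4 and the normalized count over 300. A locus past these minimums in 1 library of a pair alone could thus be called only as higher in that library. Of 8 surface ectoderm and placode markers listed, 6 were matched (DLX3, DLX5, GATA2, GATA3, TFAP2A and KRT18), all with an RPKM over 4 in each library. Their summed normalized count was 36172 to 44445 in the 4 dissected tissues and 13912 in the whole embryo. DLX3, DLX5, GATA3 and TFAP2A were above the whole embryo in each tissue. GATA2 was below it at the otic stages (1527, 541 and 863, beside 5066). KRT18 was below it at 0ss, 8-9ss and 11-12ss (2318, 2729 and 1849, beside 2920). Notochord markers (3 of 4 matched) summed to between 516 and 740 in the dissected tissues and to 51392 in the whole embryo, and neural tube markers (4 of 6) to between 41.7 and 255 and to 3905. Paraxial mesoderm markers (6 of 8) summed to 399 at 0ss, to 1674, 1783 and 2175 at the 3 otic stages and to 18705 in the whole embryo. FOXC2 made up most of the otic sums. PAX1 was at 47.3, 76.2 and 55.3 at the first 3 stages and at 490 at 11-12ss, above the 422 of the whole embryo. MEOX2 had 2 counts at 0ss and 6 at 11-12ss and was at 0 at 5-6ss, 8-9ss and 3ss. MSGN1 was at 0 at 8-9ss and 11-12ss. FOXC2, TBX6, TCF15 and MSGN1 were below the whole embryo in each tissue. In dissected pieces, fewer cells of a type and less RNA per cell cannot be told apart.

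SIX4, one of the factors that mark the pre-placodal region, had a narrower span than SIX2 and SIX6. On a scale common to all 5, its normalized count was 1719 at 0ss, 1261 at 5-6ss, 994 at 8-9ss, 1790 at 11-12ss and 1153 in the whole embryo (4978, 695, 845, 1340 and 1169 counts). The ratio of the highest to the lowest of the 5 libraries was 1.80. Neighbours in the order of SIX4 did not differ beyond counting error for 11-12ss and 0ss (ratio 1.04, interval 0.980 to 1.11) or for 5-6ss and the whole embryo (1.09, 0.994 to 1.20). By RPKM, which corrects for length, SIX4 went from 19.9 at 0ss through 13.7 and 11.0 back to 19.9 at 11-12ss, and was 12.2 in the whole embryo.

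SIX2 and SIX6 were scarce in the PPR and higher at later stages. SIX2 had 46 counts at 0ss, 54 at 5-6ss, 157 at 8-9ss, 441 at 11-12ss and 51 in the whole embryo, or normalized counts of 15.9, 97.9, 185, 589 and 50.3. Each of the 4 steps in this order lay outside counting error, with 11-12ss at the top and the PPR at the bottom. SIX6 had 7 counts in the deepest library, 0ss, then 31 at 5-6ss, 337 at 8-9ss, 280 at 11-12ss and 30 in the whole embryo, or normalized counts of 2.42, 56.2, 397, 374 and 29.6. Its levels at 8-9ss and 11-12ss did not differ beyond counting error (ratio 1.06, interval 0.902 to 1.25). At their highest, the RPKM was 21.1 for SIX2 at 11-12ss, near that of SIX4 in the same library, and 5.17 for SIX6 at 8-9ss, where SIX4 had 11.0. At 11-12ss SIX2 had 441 counts and SIX4 1340. The length implied by counts and RPKM was 581 bases for SIX2 and 1871 for SIX4, so their near RPKM values rest on this length.

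Among the EYA loci, EYA2 was the most abundant at the otic stages. Its normalized count was 3752 at 0ss, 19594 at 5-6ss, 16971 at 8-9ss, 15499 at 11-12ss and 2304 in the whole embryo, from 10867, 10803, 14424, 11603 and 2336 counts. The highest value was that of the OEPs, and each later stage lay somewhat lower and outside counting error. Its RPKM was 30.7, 192, 160, 148 and 21.1 in the same order, and it ranked 1057th of all loci at 5-6ss.

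EYA1 and EYA4, both deafness genes in humans, had their highest levels at the last stage instead. For EYA1 the normalized count was 417 in the PPR, 860 in OEPs, 1342 in the thickened placode, 3242 in the invaginating placode and 291 in the whole embryo (1209, 474, 1141, 2427 and 295 counts). For EYA4 these levels were 78.7, 970, 1672 and 2744 at the 4 stages and 33.5 in the whole embryo (228, 535, 1421, 2054 and 34 counts). In both loci every stage was above the one before it, and neighbours in the order all differed beyond counting error. At 11-12ss the RPKM was 20.1 for EYA1 and 13.3 for EYA4, still below the 148 of EYA2.

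EYA3, which is expressed in many tissues of vertebrates, was nearly flat. Its normalized count was 5164 at 0ss, 4097 at 5-6ss, 3631 at 8-9ss, 4060 at 11-12ss and 5095 in the whole embryo (14958, 2259, 3086, 3039 and 5165 counts). The highest and the lowest library differed 1.42-fold, the smallest span of the 7 loci. The PPR and the whole embryo did not differ beyond counting error (ratio 1.01, interval 0.982 to 1.05), nor did 5-6ss and 11-12ss (1.01, 0.955 to 1.07).

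**Figure D1:**
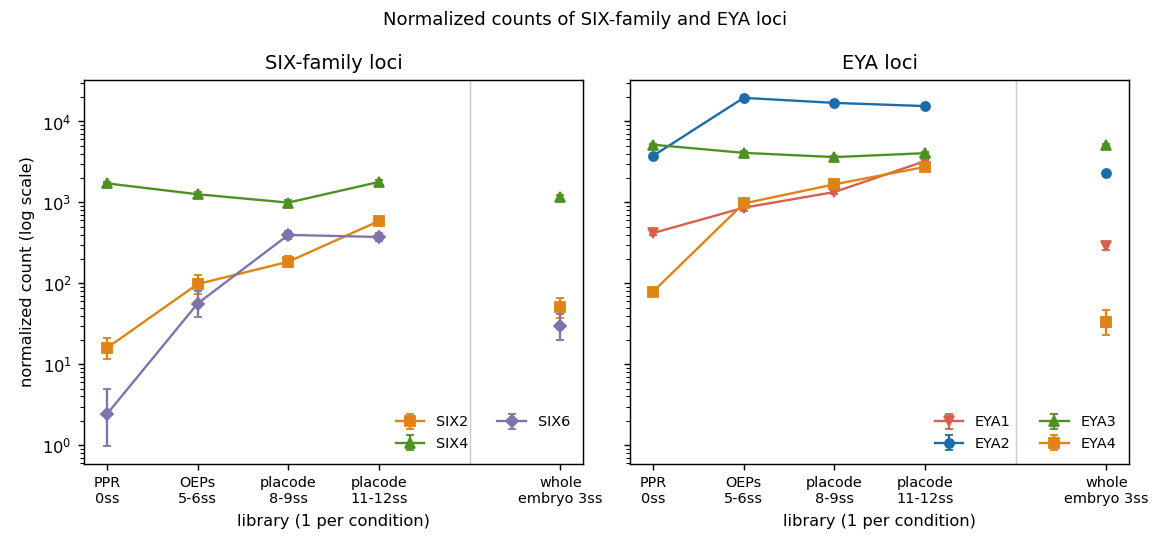
Normalized counts (log axis, common scale for all 5 libraries) of 3 SIX-family loci (left) and 4 EYA loci (right), with 1 library per condition and bars for the 95% counting interval, the whole embryo standing apart at the right. EYA2 reaches 19594 at 5-6ss and stays near this level, EYA1, EYA4 and SIX2 go on to their highest values at 11-12ss, and SIX4 and EYA3 lie within 1.80-fold and 1.42-fold across the libraries.

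Each dissected tissue was compared with the whole embryo at 3ss to see which transcripts it holds in excess. All 4 comparisons share that library, and each tissue also differs from it in stage. Tissue and embryo age therefore cannot be told apart in these ratios. In the PPR, EYA2 was called higher, at 1.63-fold (interval 1.56 to 1.71). Thus 1 of 7 members, or 1 of the 3 that reached the minimum, was higher and 0 lower, beside 15.7% and 12.9% of the 9467 loci that reached it. SIX4 was just under the threshold in the PPR with a ratio of 1.49 (1.40 to 1.59), and EYA3 was at 1.02 (0.984 to 1.05). EYA1 had a ratio of 1.44 (1.26 to 1.64) and EYA4 of 2.35 (1.64 to 3.48). SIX2 was at a 3.16-fold (2.08 to 4.81) and SIX6 at a 12.2-fold (5.26 to 33.0) lower value than the whole embryo. SIX6 had 7 counts in the PPR and 30 in the whole embryo. With all libraries thinned to the total of the smallest, its log2 fold change was -2.10 in place of -3.61, outside this interval. By the fold change of RPKM, EYA2 (1.46) was under the threshold and SIX4 (1.62) was past it. EYA1, EYA4, SIX2 and SIX6 did not reach the expression minimum in either library.

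In OEPs at 5-6ss, 3 of 7 members (3 of 5 past the minimum) were called higher than in the whole embryo and 0 lower, beside 13.9% and 10.2% of 8704 loci. EYA1 and EYA4 reached the minimum at 5-6ss alone, so that they could be called higher only. EYA4 was 28.8-fold higher (20.3 to 42.0), the 8th largest ratio of all loci tested, on 34 counts in the whole embryo. EYA2 was 8.46-fold higher (8.09 to 8.85) and EYA1 2.94-fold (2.54 to 3.41). The members called were all of the co-activator family. SIX4 (ratio 1.09, 0.988 to 1.20) and EYA3 (1.25-fold lower, 1.19 to 1.31) were not called, and SIX2 (1.94) and SIX6 (1.89) did not reach the minimum.

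At 8-9ss SIX6 joined these 3, with 13.4-fold more than in the whole embryo by counts (9.18 to 20.1) and 8.80-fold more by RPKM. With all libraries thinned to the total of the smallest, its log2 fold change was 4.17 in place of 3.74, but it no longer reached the minimum and the call was lost. Of the 7 members, of which 6 reached the minimum, 4 were called higher and 0 lower, beside 15.0% and 13.1% of 8949 loci. EYA1, EYA4 and SIX6 reached the minimum at 8-9ss alone and could be called higher only. The ratio was 7.34 for EYA2 (7.02 to 7.67), 4.60 for EYA1 (4.04 to 5.24) and 49.7 for EYA4 (35.4 to 72.0). SIX4 had a ratio of 0.859 to the whole embryo and EYA3 of 0.710, neither past the threshold, and SIX2 (ratio 3.66) did not reach the minimum.

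At 11-12ss all members but EYA3 were called higher than in the whole embryo. This is 6 of 7, all past the minimum, with 0 lower, beside 14.7% and 12.8% of 9004 loci. EYA1, EYA4, SIX2 and SIX6 reached the minimum at 11-12ss and not in the whole embryo, so that they could be called higher only. EYA4 was 80.6-fold higher (57.5 to 117), the 10th largest ratio of all. SIX6 was 12.4-fold (8.53 to 18.8), SIX2 11.5-fold (8.62 to 15.7), EYA1 11.0-fold (9.72 to 12.4) and EYA2 6.63-fold higher (6.34 to 6.93). By RPKM the order differed, with 12.7-fold for EYA1, 10.1-fold for SIX2 and 7.86-fold for SIX6. The RPKM ratio lay under the counting interval for SIX6. It lay above it for EYA1, EYA2 (6.99) and EYA3 (0.828). SIX4 passed the threshold narrowly, at 1.53-fold (1.41 to 1.66), and its interval reached below it. Thinned as above, SIX6 had a log2 fold change of 4.05 in place of 3.64 and was not called. EYA3 was at a 1.27-fold lower value. At all 3 otic stages EYA1, EYA2 and EYA4 were called higher, as were 606 loci in all, or 6.59% of the 9197 that reached the minimum.

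**Figure D2:**
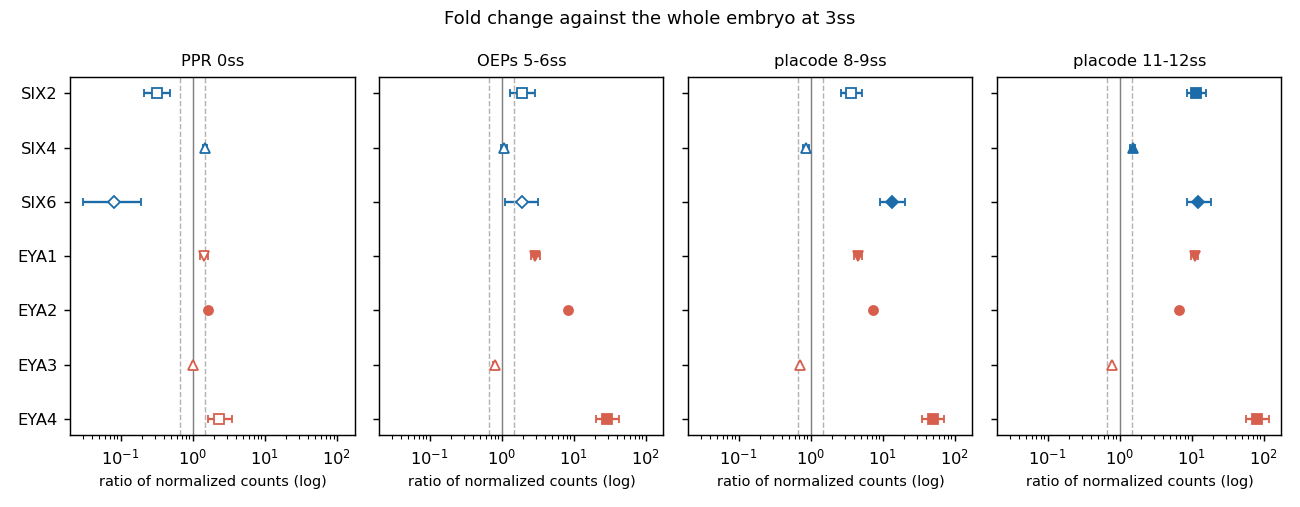
Ratio of normalized counts to the whole embryo at 3ss (log axis) for each SIX-family and EYA locus in the 4 dissected tissues, 1 library each, with 95% counting intervals, filled symbols for called loci and dashed lines at the 1.5-fold threshold. The filled symbols on the right number 1 in the PPR, 3 at 5-6ss, 4 at 8-9ss and 6 at 11-12ss, and EYA3 is filled in none. Of all loci past the minimum, 15.7%, 13.9%, 15.0% and 14.7% were called higher. Open symbols beyond a dashed line, such as SIX2 at 5-6ss and 8-9ss, did not reach the minimum.

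Consecutive stages were then compared, to follow the members as the ectoderm goes from the PPR to the otic placode. Between 0ss and 5-6ss 3 of 7 members (3 of 5 past the minimum) rose and 0 fell, beside 18.0% higher and 18.9% lower of 9253 loci. For EYA1 and EYA4, past the minimum at 5-6ss alone, only a rise could be called. EYA4 rose 12.3-fold (10.5 to 14.4), EYA2 5.19-fold (5.05 to 5.33) and EYA1 2.05-fold (1.84 to 2.28). SIX4 was at a 1.37-fold (1.27 to 1.49) and EYA3 at a 1.27-fold (1.21 to 1.33) lower value, neither past the threshold. SIX2 had a ratio of 6.13 (4.06 to 9.29) and SIX6 of 23.1 (9.99 to 62.2), on 46 and 7 counts in the PPR, and did not reach the minimum.

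From 5-6ss to 8-9ss EYA4 rose 1.74-fold (1.57 to 1.93) and EYA1 1.58-fold (1.42 to 1.76). These 2 of 7 members (2 of 5 past the minimum) were called higher and 0 lower, beside 3.89% and 4.99% of 8281 loci. EYA2 was at a 1.14-fold, EYA3 at a 1.12-fold and SIX4 at a 1.26-fold lower value. SIX6 had a ratio of 7.12 (4.92 to 10.6), but its normalized count on this pair's scale, 273, was under the minimum of 300. SIX2 had a ratio of 1.90 (1.39 to 2.64), also under the minimum. By the fold change of RPKM the ratios were 1.47 for EYA1 and 1.45 for EYA4, just under the threshold.

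From 8-9ss to 11-12ss 4 of 7 members, all past the minimum, rose and 0 fell, beside 6.54% and 3.63% of 8529 loci. SIX2 was past the minimum at 11-12ss alone, so only a rise could be called. SIX6 was past it at 8-9ss alone, so only a fall could be called. SIX2 rose 3.17-fold (2.63 to 3.82), EYA1 2.40-fold (2.23 to 2.57), SIX4 1.79-fold (1.64 to 1.95) and EYA4 1.63-fold (1.52 to 1.74). EYA3 had a ratio of 1.11, EYA2 was at a 1.10-fold lower value, and the interval of SIX6 included no change (1.07-fold lower, 0.909 to 1.26). By counts EYA1 and EYA4 thus rose at each of the 3 steps, as did 26 of the 9468 loci with a value past the minimum in a step (0.275%).

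Over the whole interval from 0ss to 11-12ss, 5 of 7 members, all past the minimum, rose and 0 fell, beside 19.1% and 19.8% of 9543 loci. For EYA1, EYA4, SIX2 and SIX6, past the minimum at 11-12ss and not at 0ss, only a rise could be called. SIX6 was 154-fold higher at the end by counts (73.8 to 387) and 75.8-fold by RPKM, values that rest on 7 counts in the PPR. In the thinned libraries its log2 fold change was 6.15 in place of 7.27, and the call was lost. SIX2 rose 36.9-fold (27.2 to 51.2), EYA4 34.7-fold (30.2 to 39.9), EYA1 7.73-fold (7.21 to 8.29) and EYA2 4.11-fold. SIX4 ended where it began (ratio 1.04, 0.975 to 1.10), within counting error, and EYA3 was at a 1.28-fold lower value.

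**Figure D3:**
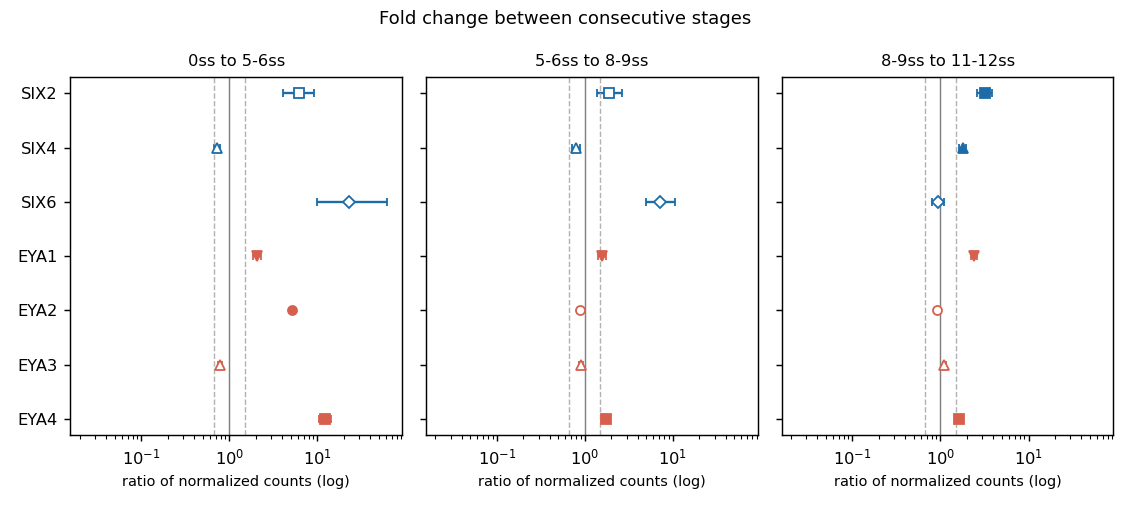
Ratio of normalized counts of the later to the earlier stage (log axis) for each SIX-family and EYA locus, 1 library per stage, with 95% counting intervals, filled symbols for called loci and dashed lines at the 1.5-fold threshold. EYA2 (5.19-fold) is filled at the first step alone, SIX2 (3.17-fold) and SIX4 (1.79-fold) are filled at the last alone, and EYA1 and EYA4 at all 3.

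Markers of other cell types also moved over these stages. The 3 blood and vessel markers matched (LMO2, KDR and CDH5, of 6 listed) had a summed normalized count of 220 at 0ss, 1670 at 5-6ss, 2144 at 8-9ss and 3775 at 11-12ss, beside 7262 in the whole embryo. This sum was in the same order across the 4 stages as the levels of EYA1, EYA4 and SIX2, and so was the paraxial mesoderm sum given above. None of the 3 blood and vessel markers was at 0 in a library. The largest part of their sum was KDR at 0ss (a normalized count of 120, beside 84.2 for LMO2) and in the whole embryo. At the 3 otic stages it was LMO2, with 2136 at 11-12ss. CDH5 was above the whole embryo at 8-9ss and 11-12ss (262 and 530, beside 114). LMO2 reached the level of the whole embryo (2127) at 11-12ss, and KDR was below it at every stage. Neural crest markers (3 of 6 matched) summed to 952, 2162, 1195 and 1586 at the 4 stages and to 4378 in the whole embryo, and endoderm markers (2 of 5) to 146, 751, 125 and 168 and to 924. TFAP2B was above the whole embryo (111) at 0ss, 5-6ss and 11-12ss (275, 490 and 366), and SNAI2 and TWIST1 were below it at every stage. The endoderm sum at 5-6ss was mostly TTR (677, beside 409 in the whole embryo). HHEX was below the whole embryo at every stage. Head mesoderm and muscle markers (5 of 6), tissue where EYA genes are also active in vertebrates, summed to 260, 452, 209 and 118 and to 3293, with MYF5 at 0 at 5-6ss, MSC at 8-9ss and MYOD1 at 11-12ss. The part of these cell types in the levels of SIX-family and EYA loci was not tested.

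The make-up of the EYA family differed between the PPR and the otic stages. EYA3 was the leading locus in the PPR (53.3% of the total RPKM) and in the whole embryo (63.6%), and EYA2 led at every otic stage. EYA2 held 43.2% at 0ss, 81.3% at 5-6ss, 78.0% at 8-9ss, 69.0% at 11-12ss and 33.6% in the whole embryo. EYA3 held 14.2%, 14.4% and 15.5% at the 3 otic stages. EYA1 and EYA4 had small shares that were largest at 11-12ss, at 9.39% and 6.20%, beside 3.10% and 0.424% at 0ss. The EYA total was an RPKM of 71.2 at 0ss, 236 at 5-6ss, 205 at 8-9ss, 214 at 11-12ss and 62.8 in the whole embryo, with its highest value at 5-6ss.

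**Figure D4:**
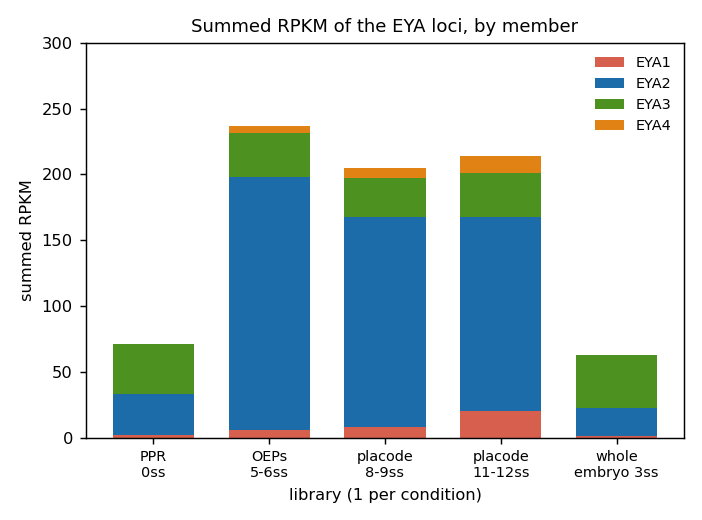
Summed RPKM of the 4 EYA loci in each library, 1 per condition, each bar starting at 0 and divided by locus. EYA3 fills 53.3% of the bar in the PPR, and EYA2 81.3% at 5-6ss.

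Ratios of 2 members within a library need no size factor. EYA2 over EYA3 was 0.727 in counts at 0ss, 4.78 at 5-6ss, 4.67 at 8-9ss, 3.82 at 11-12ss and 0.452 in the whole embryo, with no correction for length. Between 0ss and 5-6ss the ratio went up 6.58-fold (95% interval of the odds ratio 6.25 to 6.93) by counts and 7.09-fold by RPKM. EYA4 over EYA3 went up 15.5-fold (13.2 to 18.3) by counts and 19.2-fold by RPKM at this step. These ratios come from the same counts as the fold changes above. They show only that the shift within the EYA family does not depend on the scaling between libraries.

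The EYA loci that were called higher at 5-6ss did not keep their ratios to each other. EYA1 over EYA2 was 0.111 in counts at 0ss, 0.0439 at 5-6ss, 0.0791 at 8-9ss, 0.209 at 11-12ss and 0.126 in the whole embryo. Going from 0ss to 5-6ss it was 2.54-fold lower (2.27 to 2.83), and going from 8-9ss to 11-12ss 2.64-fold higher (2.45 to 2.85). EYA4 over EYA2 went up at each step, 2.36-fold (2.02 to 2.76), 1.99-fold (1.80 to 2.20) and 1.80-fold (1.67 to 1.93).

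Counts and RPKM gave the same direction for all 7 members between 0ss and 5-6ss, but not the same size. By RPKM SIX2 was 4.42-fold higher at 5-6ss (6.13-fold by counts) and SIX6 12.7-fold (23.1). EYA4 was 16.9-fold higher by RPKM (12.3-fold by counts), EYA2 6.25-fold (5.19) and EYA1 2.53-fold (2.05). The RPKM ratio was thus below the count ratio for the SIX-family loci, by a factor of 0.547 for SIX6 to 0.947 for SIX4, and above it for the EYA loci, by 1.12 for EYA3 to 1.38 for EYA4. The effective length of a locus is the length in bases implied by its count, its RPKM and the total count of the library. At 0ss the SIX-family loci had the shorter ones, from 463 bases for SIX2 to 1830 for SIX4. The EYA loci had the longer ones, from 2582 for EYA2 to 5516 for EYA4. At 5-6ss the effective length was 626 bases for SIX2 (463 at 0ss) and 3902 for EYA4 (5516 at 0ss). By its definition, the length at 0ss over that at 5-6ss is the RPKM ratio over the count ratio, up to a factor common to all loci. These lengths therefore restate the differing ratios. Over 13088 loci the median length was 1883 bases at 0ss and 1734 at 5-6ss. Libraries were read as single or paired reads of different length, and the part of this in the differing ratios was not tested.

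**Figure D5:**
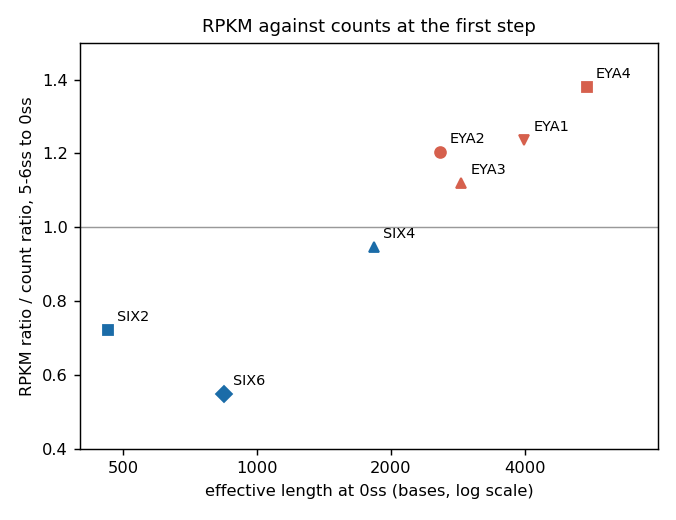
RPKM ratio divided by count ratio between 5-6ss and 0ss (linear axis) against effective length at 0ss in bases (log axis), 1 point for each SIX-family (blue) and EYA (red) locus. Both axes contain the effective length at 0ss, so an upward trend is partly built in. The points go from 0.547 for SIX6 to 1.38 for EYA4, with the SIX-family loci below 1 and the EYA loci above it.

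Partners of the 2 families are the DACH co-repressors, the Groucho-type TLE co-repressors, SOBP and other proteins known to bind SIX-family or EYA proteins. Of 13 listed, 9 were matched, at 10 loci. Between 0ss and 5-6ss 1 of the 8 loci past the minimum rose, TLE3 (1.65-fold, 1.58 to 1.73), and 1 fell, TLE4 (4.07-fold, 3.75 to 4.43), beside 18.0% and 18.9% of all loci past it. The median log2 fold change of the 8 was 0.17, and -0.03 over all loci past the minimum. At 11-12ss 2 of 9 were higher than in the whole embryo, DACH1 (1.97-fold, 1.83 to 2.12) and DACH2 (1.67-fold, 1.51 to 1.84), and 0 lower, beside 14.7% and 12.8%, with a median of 0.06 beside -0.01. The few calls of these 2 comparisons lie near the shares over all loci. From 5-6ss to 8-9ss 2 of 8 rose and 1 fell, beside 3.89% and 4.99%, with a median of -0.04 beside 0.00. From 8-9ss to 11-12ss 4 of 9 rose and 0 fell, beside 6.54% and 3.63%, with a median of 0.32 beside -0.03.

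Genes known as targets of SIX-family or EYA proteins in vertebrates went in both directions. Of 14 listed, 11 were matched, and between 0ss and 5-6ss 1 of 7 past the minimum rose and 4 fell, beside 18.0% and 18.9% of all loci, with a median log2 fold change of -0.78 over these 7 beside -0.03. The one that rose was EZR (2.16-fold, 2.07 to 2.25), which encodes the membrane linker ezrin. Among those that fell were the cyclin gene CCNA1 (8.27-fold, 6.02 to 11.7), the ion cotransporter gene SLC12A2 (2.55-fold, 2.39 to 2.72) and SOX2 (2.03-fold, 1.75 to 2.36), a gene of neural and sensory progenitors. From 5-6ss to 8-9ss SOX2 rose 3.84-fold (3.29 to 4.49). Over the whole interval from 0ss to 11-12ss 3 of 7 targets rose and 3 fell, beside 19.1% and 19.8%, with a median of -0.43 beside -0.06. Those that rose were EZR (4.45-fold), SOX2 (2.21-fold) and MYC (2.04-fold), a growth regulator. Those that fell were CCNA1 (RPKM 7.26 at 0ss and 0.657 at 11-12ss), SLC12A2 (25.0 and 10.7) and SALL1. Against the whole embryo, EZR at 11-12ss was higher by 2.14-fold (2.07 to 2.22), and MYC (2.78-fold, 2.58 to 2.98) and SALL1 (2.39-fold, 2.32 to 2.46) were lower. These are 1 and 2 of the 6 past the minimum, beside 14.7% and 12.8%, with a median over the 6 of -0.37 beside -0.01. Many of these targets were described in muscle, kidney or hair cells, other settings than the early placode.

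Other transcription factors of the pre-placodal region and otic placode gave a setting for the members. Of 18 listed, 15 were matched, and 14 were past the minimum. In the PPR 11 of them were higher than in the whole embryo and 2 lower (15.7% and 12.9% over all loci), and the counts were again 11 and 2 at each of the 3 otic stages (13.9% to 15.0% and 10.2% to 13.1%). The genes behind these counts changed. PAX2 and GBX2 were lower in the PPR and higher at the otic stages, and GATA2 and OTX2 were higher in the PPR and lower at the otic stages. Between 0ss and 5-6ss 8 of 14 rose and 4 fell, beside 18.0% and 18.9%, with a median log2 fold change of 0.65 beside -0.03. PAX2 rose 236-fold (190 to 295), GBX2 21.7-fold (20.7 to 22.7) and DLX3 6.76-fold (6.40 to 7.13), while GATA2 (6.21-fold, 5.80 to 6.66), OTX2 (5.06-fold, 4.78 to 5.37) and IRX2 (2.30-fold, 2.12 to 2.51) fell. The rise of EYA4, 12.3-fold, lay between those of DLX3 and GBX2. At 11-12ss PAX2 was 41.3-fold (36.8 to 46.4), DLX3 17.6-fold (15.9 to 19.5) and FOXI2 9.51-fold higher than in the whole embryo, and OTX2 (9.54-fold, 8.59 to 10.6) and GATA2 (5.96-fold, 5.49 to 6.48) were lower, with a median of 1.31 beside -0.01.

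For each member the 3 loci with the most similar pattern were taken from 8668 expressed loci with a symbol, by the root mean square (RMS) difference of log2 normalized counts over the 5 libraries, each centred on its mean. EYA3 had very close neighbours, AGFG1 (RMS 0.024), TJAP1 (0.027) and SRSF6 (0.031), and for SIX4 MYH9 (0.08) and LARP1 (0.08) were among the 3 nearest. EYA2 was nearest to CLDN3 (0.14), a tight junction gene, CARD10 (0.18) and S100A16 (0.23). EYA1 was nearest to COL2A1 (0.19), a collagen gene of cartilage and of the otic capsule, SHISA6 (0.24) and ADAP1 (0.28).

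SIX2 was nearest to IRX4 (0.22), NR2F2 (0.33) and ADRA2A (0.35). The 2 members with the steepest patterns had less similar neighbours, which were TFAP2E (0.45), SOX8 (0.50) and ITGB3 (0.61) for EYA4 and FGF10 (0.59), MMP2 (0.65) and NR2F1 (0.77) for SIX6. Among the members themselves, EYA3 and SIX4 had the smallest RMS difference (0.32), followed by EYA1 and EYA2 (0.75). The measure is not scaled by span, so loci with narrow spans come out close whatever the order of their libraries. EYA3 was highest at 0ss and SIX4 at 11-12ss. Patterns over 5 libraries rest on few points, and many loci can come close to any of them.

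The loci carry the names given in the deposited tables. In RefSeq's chicken annotation no gene is called SIX4, so that the name of the SIX4 locus may differ between annotations. Members of a family share sequence in their SIX-family or EYA domains, and how reads that match more than 1 of them were assigned was not given in the sources used here. The library kit does not mark strand, so reads of a gene and of an overlapping antisense transcript cannot be told apart.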

How the data were processed

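PolyA RNA of 5 chick tissues was sequenced, 1 library each. The authors aligned reads with TopHat2 (2.0.7) to galGal4 and assembled loci with Cufflinks (2.1.1). Counts of reads per locus (easyRNAseq 2.1.0) were deposited by the authors without normalization, and RPKM values were deposited from Cuffdiff (2.1.1).

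Each of 8 comparisons used median-of-ratios size factors of its 2 libraries, the method of DESeq, which the authors used, fitted over all loci, with the authors' thresholds (fold over 1.5, RPKM over 4, normalized count over 300). Levels used size factors over all 5 libraries. Counts under 3 were raised to 3 for a fold change. All members described were named, with the 3 nearest patterns of each (log2 of normalized count plus 1, members with a mean of at least 10) and, from each list of partners, targets and pre-placodal factors, the 3 called genes with the largest fold in each direction at 5-6ss against 0ss and at 11-12ss against the whole embryo. Members and lists were chosen with earlier results of these data known. Alternatives changed the scaling, minimums, fold threshold, unit or depth, 1 at a time. The code behind the calls was run on simulated counts that hold counting error only, which says nothing about spread between embryos. Tools were edgeR 4.0.16 (TMM alternative) in R 4.3.3, and scipy 1.17.1, pandas 2.3.3, numpy 2.4.6 and matplotlib 3.10.9 in Python 3.11.15. RefSeq names came from an assembly other than galGal4, so no coordinates are given. Of the 8 loci that the rule finds, 1 is not reported here, nor is 1 of the nearest patterns.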

Additional observations from a re-analysis of the deposited data

How the results depend on the processing

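No paired analysis was possible because each condition has 1 library, and for the same reason no library could be left out and no spread between replicates is known. Depth limits SIX2, SIX6 and EYA4, which have 7 to 228 counts in the PPR and 30 to 51 in the whole embryo. In no alternative did a called member change direction. The share over all loci is given for the main setting only, so the counts below cannot be set against such a share. With no expression minimum, 4 members were called in place of 1 for the PPR against the whole embryo, 2 higher and 2 lower (SIX2 and SIX6). Elsewhere the calls were all higher. Among them were 5 in place of 3 both for 5-6ss against the whole embryo and for 5-6ss against 0ss, and 4 in place of 2 for 8-9ss against 5-6ss. With a fold over 2, 0 members were left for the PPR against the whole embryo, 0 for 8-9ss against 5-6ss and 2 of 4 for 11-12ss against 8-9ss. With the RPKM fold change, 0 were left for 8-9ss against 5-6ss, and SIX4 took the place of EYA2 for the PPR against the whole embryo. With the whole counting interval past 1.5-fold, 1 was left for 8-9ss against 5-6ss. The call of SIX4 at 11-12ss against the whole embryo was lost with total counts, with a fold over 2 and with the whole interval. SIX6 was added at 8-9ss against 5-6ss with size factors over all 5 libraries. The 3 calls of SIX6 were lost when all libraries were thinned to 26858887 counts, which put it under the minimum. Of 56 fold changes, 56 stayed within their counting interval with TMM and 35 with RPKM, where 21 moved outside it. The largest change with RPKM among all 56 was 1.02 on the log2 scale. It was that of SIX6 at 11-12ss against 0ss, which stayed within its wide interval. With thinning, 54 stayed within their interval and 2 moved outside it. These were SIX6 in the PPR against the whole embryo, with the largest change of 1.51, and SIX6 at 11-12ss against 0ss. EYA3 in the PPR against the whole embryo, not called, went from a log2 fold change of 0.02 to -0.03 with total counts and to -0.07 with RPKM.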
